A study of Mus musculus with 486 samples.

Results

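Ebf1 was 1 of 47 gene assays read in single mouse bone marrow cells by reverse transcription and quantitative PCR on a Fluidigm BioMark chip. It was found by its assay name, which the table pairs with ENSMUSG00000057098, a gene on chromosome 11 from 44618100 to 45008096 in the GRCm38.p6 build. The cells came from the bone marrow of wild-type C57/Bl6 mice and had been sorted by flow cytometry as CLP (common lymphoid progenitors) or FrA, a name that usually stands for the earliest fraction of the B-cell series and that the labels do not spell out. CLP were divided into Ly6d-Gfra2-, Ly6d+Gfra2- and Ly6d+Gfra2+ cells, and FrA into Gfra2-Bst1-, Gfra2+Bst1- and Gfra2+Bst1+ cells. The labels give no treatment, age or sex, and do not say which animal a cell came from. Each of the 6 sorted subtypes was therefore 1 sample of many cells, and no p-value was computed between subtypes. Of 464 single cells, 463 were kept, from 42 to 87 in a subtype, and Ebf1 was detected in 341 of them.

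Ebf1 encodes early B-cell factor 1, a DNA-binding transcription factor that is needed to set up the B-cell programme. In lymphoid progenitors its gene is switched on under the control of interleukin-7 receptor signalling and of factors such as E2A and FOXO1, and its product in turn opens and activates B-lineage genes, among them Pax5, which then holds cells in the B lineage. Ly6d is a surface protein that marks CLP with a bias to the B lineage. Gfra2 encodes a co-receptor for neurturin, and Bst1 encodes the surface enzyme CD157. The sorting used the surface proteins and not Ebf1, so the Ebf1 values below played no part in the choice of cells.

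The DNA around the transcription starts is shown first for Ebf1 itself. It is then shown for genes whose transcripts went with or against Ebf1 in cells of some subtypes and whose window held the core of an EBF site. The RefSeq table on GRCm38.p6 gives 2 start sites for Ebf1, whose windows of 250 bases before and 50 after the start lie at chr11:44617850-44618149 and chr11:44619978-44620277, both on the plus strand. The core was searched as CCCNNGGG, which reads the same on both strands, and is printed in capitals. It occurred in 13.7% of 32851 such windows of the table, so a match by itself is common. Neither Ebf1 window held it.
Ebf1, first start: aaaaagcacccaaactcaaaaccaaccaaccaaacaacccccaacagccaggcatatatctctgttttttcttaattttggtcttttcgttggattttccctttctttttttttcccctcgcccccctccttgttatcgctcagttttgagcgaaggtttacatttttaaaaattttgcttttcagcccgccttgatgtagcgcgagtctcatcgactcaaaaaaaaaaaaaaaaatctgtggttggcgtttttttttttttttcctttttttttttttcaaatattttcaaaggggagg
Ebf1, second start: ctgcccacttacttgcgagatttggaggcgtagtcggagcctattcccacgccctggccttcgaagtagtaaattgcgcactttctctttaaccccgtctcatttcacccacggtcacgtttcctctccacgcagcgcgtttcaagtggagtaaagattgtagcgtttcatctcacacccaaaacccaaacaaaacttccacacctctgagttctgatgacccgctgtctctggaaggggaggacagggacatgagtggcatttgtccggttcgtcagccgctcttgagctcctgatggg
Igll1, chr16:16863936-16864235, minus strand: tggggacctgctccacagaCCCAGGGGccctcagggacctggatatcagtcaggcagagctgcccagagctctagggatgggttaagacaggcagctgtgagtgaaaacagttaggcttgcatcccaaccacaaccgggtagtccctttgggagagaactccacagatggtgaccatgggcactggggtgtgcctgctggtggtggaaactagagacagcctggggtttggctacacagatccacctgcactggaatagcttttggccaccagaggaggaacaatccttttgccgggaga
Foxo1, chr3:52268087-52268386, plus strand: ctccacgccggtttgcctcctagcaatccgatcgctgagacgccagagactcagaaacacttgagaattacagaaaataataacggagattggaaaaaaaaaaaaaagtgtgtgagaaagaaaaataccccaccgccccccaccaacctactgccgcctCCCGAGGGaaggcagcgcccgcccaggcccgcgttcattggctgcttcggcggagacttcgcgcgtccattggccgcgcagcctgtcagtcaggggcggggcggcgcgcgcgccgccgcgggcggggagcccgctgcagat
Spib, chr7:44532022-44532321, minus strand: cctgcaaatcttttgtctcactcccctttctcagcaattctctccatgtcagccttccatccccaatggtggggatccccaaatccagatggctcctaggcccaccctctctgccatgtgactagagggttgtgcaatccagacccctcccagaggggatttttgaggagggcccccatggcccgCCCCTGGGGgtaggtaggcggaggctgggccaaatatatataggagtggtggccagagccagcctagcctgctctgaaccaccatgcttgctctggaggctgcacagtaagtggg

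Igll1 and Foxo1, which went with Ebf1 in the cells, held 1 core each, which began 231 and 91 bases before the start. Spib, which was found in fewer of the cells with Ebf1 in CLP Ly6d+Gfra2- and FrA Gfra2-Bst1-, held 2 overlapping cores. These began 65 and 64 bases before its start. Over the 6 subtypes the share of cells with Spib had a Pearson's r of -0.009 with that of Ebf1. The windows of Pax5, Pou2af1 and Rag1, whose transcripts were found almost only in cells with Ebf1, held none. The E-box CAGGTG, a sequence that E2A proteins bind, was searched on both strands and occurred in 20.2% of all windows. Among these genes it was found in Igll1, beginning 8 bases before the start, and in Rag1, 135 bases before it. The forkhead sequence GTAAACA, also searched on both strands and present in 3.65% of all windows, was found in none of these genes. These matches describe letters in short windows, and binding was not measured in these data.

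The measured value is the threshold cycle (Ct), the PCR cycle at which the signal of an assay passes a threshold. Wells with more starting template reach it earlier, so low values stand for high levels, and with perfect amplification a step of 1 cycle is a doubling. An assay was counted as detected at a Ct of at most 28, and wells with no recorded Ct carry the value 40. Atp5a1, Hprt and 1 more gene served as reference assays, which averaged a Ct of 10.8 to 12.8 on the 11 plates, and cells had to show at least 2 of these 3. Each subtype filled 2 plates of its own except FrA Gfra2+Bst1+, which filled 1, so that plate and subtype cannot be told apart and the 2 plates show only the spread within a subtype. On 1 FrA Gfra2-Bst1- plate, 2 further wells have titles that say no reverse transcriptase was added, yet their Ct values, Ebf1 included, were like those of cells, and they were left out. The protocol speaks of 4 such wells on each plate, so that other wells labelled as cells may be controls, which was tried as an alternative. Il7r, which encodes the interleukin-7 receptor, was found in 97.6% to 100% of the cells of every subtype, and the other early lymphoid markers ranged from 8.05% for Rag1 to 100% for Dntt. Of 3 T-lineage genes, Bcl11b was found in no cell, Gata3 in 0% to 17.2% and Notch1 in 92.9% to 100%. Of 3 granulocyte-monocyte genes, Mpo was found in 55.8% to 79.3% of CLP and in 8.43% to 11.9% of FrA, Cebpa in 2.41% to 12.6% and Spi1 in 80.7% to 100%. The 4 natural killer and innate lymphoid genes, Klrb1c, Il2rb, Nfil3 and Id2, ranged from 1.20% to 62.2%. The part of such cells in the results was not tested.

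Ebf1 was recorded in a minority of the CLP that lacked Ly6d and in nearly every cell of the 3 Gfra2+ subtypes, which also held more of it per cell. In CLP Ly6d-Gfra2- it was detected in 29 of 87 cells, a share of 33.3% with an exact 95% binomial interval from 23.6% to 44.3%. The plates of that subtype gave 31.0% and 35.6%. In CLP Ly6d+Gfra2- the share was 73.3% (62.6% to 82.2%), with 78.6% and 68.2% on its plates. In CLP Ly6d+Gfra2+ all 82 cells held Ebf1, which leaves a lower bound of 95.6%. FrA followed the same order by Gfra2. FrA Gfra2-Bst1- had Ebf1 in 45 of 83 cells, or 54.2% (42.9% to 65.2%), with 56.1% and 52.4% on its plates. FrA Gfra2+Bst1- had it in 81 of 83 cells, or 97.6% (91.6% to 99.7%), and FrA Gfra2+Bst1+ in 41 of 42 cells, also 97.6% (87.4% to 99.9%). These intervals cover counting error only.

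Among cells with Ebf1, the mean Ct was 15.53 ± 3.02 in CLP Ly6d-Gfra2- (SD over 29 cells, from 11.60 through a median of 15.08 to 26.13). It was 13.68 ± 1.60 in CLP Ly6d+Gfra2- (63 cells, 11.06, 13.41 and 20.42 for the lowest, median and highest Ct). In CLP Ly6d+Gfra2+ it was 11.84 ± 1.24 (82 cells, 10.02, 11.59 and 15.67). The CLP series thus moved toward lower Ct, that is, toward more transcript, with the ranges of neighbouring subtypes overlapping. In FrA Gfra2-Bst1- the mean Ct was 13.91 ± 2.51 (45 cells, 9.80, 13.33 and 25.48). In FrA Gfra2+Bst1- it was 10.95 ± 1.1 (81 cells, 8.71, 10.77 and 14.57). In FrA Gfra2+Bst1+ it was 10.45 ± 0.81 (41 cells, 8.98, 10.49 and 12.82). The plate means differed by 2.48 cycles in CLP Ly6d-Gfra2- and by 0.08 to 0.69 cycles in the other subtypes with 2 plates. The 2 cells of CLP Ly6d-Gfra2- with a Ct above 20 carried much of its spread. Without them the SD was 1.42 over 27 cells, and its plate means lay 0.97 cycles apart. The SD over cells was 3.73 times larger than in FrA Gfra2+Bst1+ with these cells and 1.75 times larger without them.

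**Figure D1:**
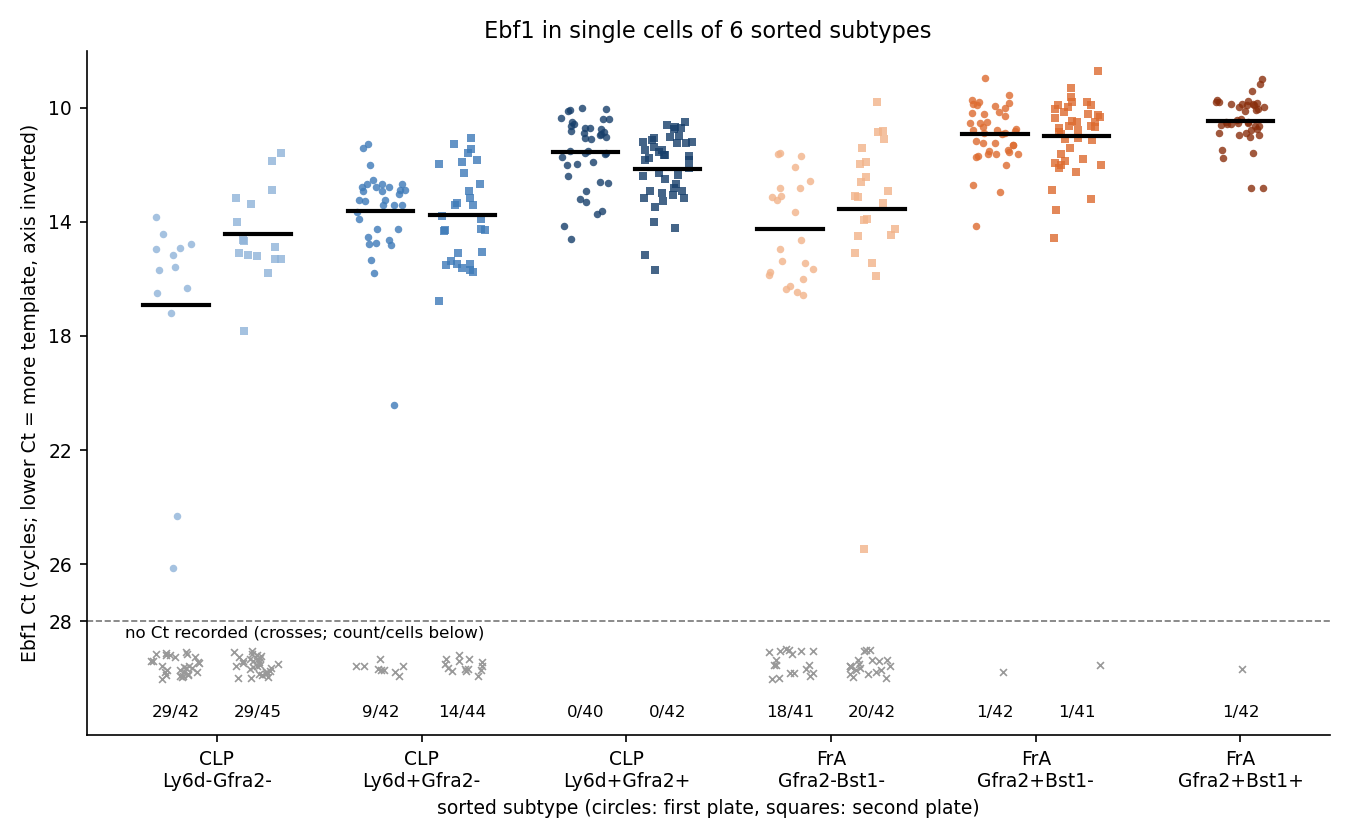
Ebf1 Ct in cycles (inverted axis, more template upward) for each of 463 cells, by sorted subtype and plate. Bars are plate means over cells with Ebf1, crosses are cells with no Ct, and the numbers give such cells over all cells of the plate. The Gfra2- subtypes hold many cells without Ebf1 and a wide spread among those with it, and the Gfra2+ subtypes are compact between Ct 8.71 and 15.67.

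Few cells had an Ebf1 Ct near the limit used. None of the 463 cells had an Ebf1 Ct between 28 and 40. The highest Ct recorded for any assay was 28.07, so that gap belongs to the readout and says nothing about Ebf1. Only 4 cells had an Ebf1 Ct above 20. Of these 4 cells, 2 were CLP Ly6d-Gfra2- on the same plate, with Ct 24.32 and 26.13, and the others were 1 CLP Ly6d+Gfra2- cell at 20.42 and 1 FrA Gfra2-Bst1- cell at 25.48. All 4 held 22 to 24 detected assays with Ebf1 counted, near the subtype means for cells with Ebf1, which leave Ebf1 out. The FrA cell had a mean reference Ct of 15.10, against 12.80 over cells with Ebf1 in its subtype. The 2 CLP Ly6d-Gfra2- cells had 11.88 and 11.13, against 11.04, and the CLP Ly6d+Gfra2- cell had 12.95, against 12.21. The share of cells with strong Ebf1, at a Ct of at most 12, was 2.30%, 10.5% and 64.6% along the CLP series. It was 12.1%, 85.5% and 92.9% along the FrA series. Cells with strong Ebf1 were therefore present in every subtype, at 2.30% to 12.1% of cells in the Gfra2- subtypes.

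The 6 subtypes could be ordered by Ebf1 level, and 4 of the 5 steps between neighbours could be judged by the rule used for a difference, at least 1 cycle with no overlap of plate means and at least 50% of cells with Ebf1 on both sides. Only 1 of them met it. FrA Gfra2+Bst1+ stood 0.49 cycles above FrA Gfra2+Bst1-, which stood 0.90 cycles above CLP Ly6d+Gfra2+, and both steps fell short of the rule. The next step, down to CLP Ly6d+Gfra2-, was the 1 that met it, at 1.84 cycles. CLP Ly6d+Gfra2- and FrA Gfra2-Bst1- lay 0.22 cycles apart with overlapping plates, and without plate 2 their order turned, at -0.13 cycles. The last step, from FrA Gfra2-Bst1- to CLP Ly6d-Gfra2-, was 1.62 cycles, or 0.51 cycles without plate 5, and was not judged because of the low share in the second. In order of detection, 3 of the 5 steps missed the corresponding rule of 20 percentage points with no overlap of plates. Those that met it were the 24.3 points between FrA Gfra2+Bst1- and CLP Ly6d+Gfra2- and the 20.9 points between FrA Gfra2-Bst1- and CLP Ly6d-Gfra2-. The first was 19.0 points without plate 7, and the second 18.7 points without plate 5 and 19.0 points without plate 2, so each fell below the limit when 1 plate was left out.

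The comparisons along the sorting scheme ask where Ebf1 starts and where it climbs. With Ly6d, among Gfra2- CLP, the share of cells with Ebf1 rose by 39.9 points (Newcombe 95% interval 25.3 to 52.1, counting error only). Of 45 assays read by the same rule there, 4.44% were higher, the other one being Rag1, and 4.44% lower. The level stood 1.85 cycles higher, or 1.24 with a Ct limit of 20 for every assay. It was not judged because under 50% of Ly6d- cells held Ebf1. Less the mean reference Ct of each cell, the Ebf1 Ct averaged 4.49 in Ly6d- and 1.47 in Ly6d+ cells. The mean reference Ct itself was 11.22 in Ly6d- and 12.24 in Ly6d+ cells. Of the 22 assays judged in level, none was higher and 9.09% were lower. With Gfra2, among Ly6d+ CLP, the share rose by 26.7 points (17.4 to 36.9) and the level by 1.84 cycles. There 13.3% of the 45 assays were higher and 2.22% lower in detection and 13.0% of 23 assays in level, the last group being Ebf1, Foxo1 and Cd24a. With Gfra2, among Bst1- FrA, the share rose by 43.4 points (31.5 to 54.2) and the level by 2.96 cycles. In that comparison 20.0% of 45 assays were higher in detection and 36.4% of 22 assays in level, so a rise there was common. The reference assay Hprt was also among those higher, and the mean reference Ct was 11.75 in FrA Gfra2+Bst1- against 12.62 in FrA Gfra2-Bst1-. Set against the reference assays cell by cell, Ebf1 still stood 1.91 cycles higher with Gfra2 in FrA and 1.57 cycles higher with Gfra2 in CLP. With Gfra2, Ebf1 thus differed in both share and level. The level is a mean over cells with Ebf1 only, so share and level are not independent. Whether a single shift in amount would give both was not tested.

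Gain of Bst1 brought no difference in Ebf1 that met either rule. Detection differed by 0.03 points (-10.1 to 6.30), where 4.44% of assays were higher and 2.22% lower, and the level by 0.49 cycles, where 7.69% of 26 assays were higher and 11.5% lower. Between FrA and CLP with Gfra2, detection differed by -2.41 points (-8.37 to 2.39) and the level by 0.90 cycles, both short of the rules, against 4.44% of assays higher and 2.22% lower in detection and 8.00% of 25 higher in level. Between FrA Gfra2-Bst1- and CLP Ly6d+Gfra2-, Ebf1 was found in 19.0 points fewer FrA cells (-32.5 to -4.55 as the interval of the difference), just short of the limit of 20 points. There 6.67% of assays were lower, with 13.6% of 22 lower in level. The level in that last comparison differed by -0.22 cycles, and by 0.37 cycles in the other direction once set against the reference assays, so its direction was not settled. Against CLP Ly6d-Gfra2-, the other CLP without Gfra2, FrA Gfra2-Bst1- had Ebf1 in 20.9 points more cells.

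Over the 6 subtypes the detection shares of Rag1, Gfra2, Gfra1 and Foxo1 were most like those of Ebf1 among 31 assays that varied. Pearson's r was 0.97 for Rag1, which encodes a subunit of the recombinase that cuts antigen receptor genes, and 0.96 over the 11 plates. It was 0.91 for Gfra2, whose protein had been used for sorting, 0.89 for Gfra1, a related co-receptor, and 0.87 for Foxo1, which encodes a forkhead transcription factor. These are descriptions over 6 points that share cells and input RNA with Ebf1. Rag1 climbed from 8.05% through 33.7% to 76.8% along the CLP series and from 19.3% through 80.7% to 73.8% along FrA. It lay below Ebf1 in each subtype. Foxo1 went from 56.3% through 74.4% to 100% in CLP and stood at 89.2%, 97.6% and 100% in FrA. Pax5, at r = 0.87, lagged further behind, with 2.30%, 9.30% and 65.9% in CLP and 20.5%, 88.0% and 97.6% in FrA. The least alike were Bcl2, which encodes an inhibitor of cell death, at r = -0.93, and Gata3, a T-cell and innate lymphoid factor, at r = -0.75. Bcl2 was found in 86.2%, 77.9% and 43.9% of cells along CLP and in 83.1%, 54.2% and 52.4% along FrA, and so was lowest in the subtypes where Ebf1 was highest.

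**Figure D2:**
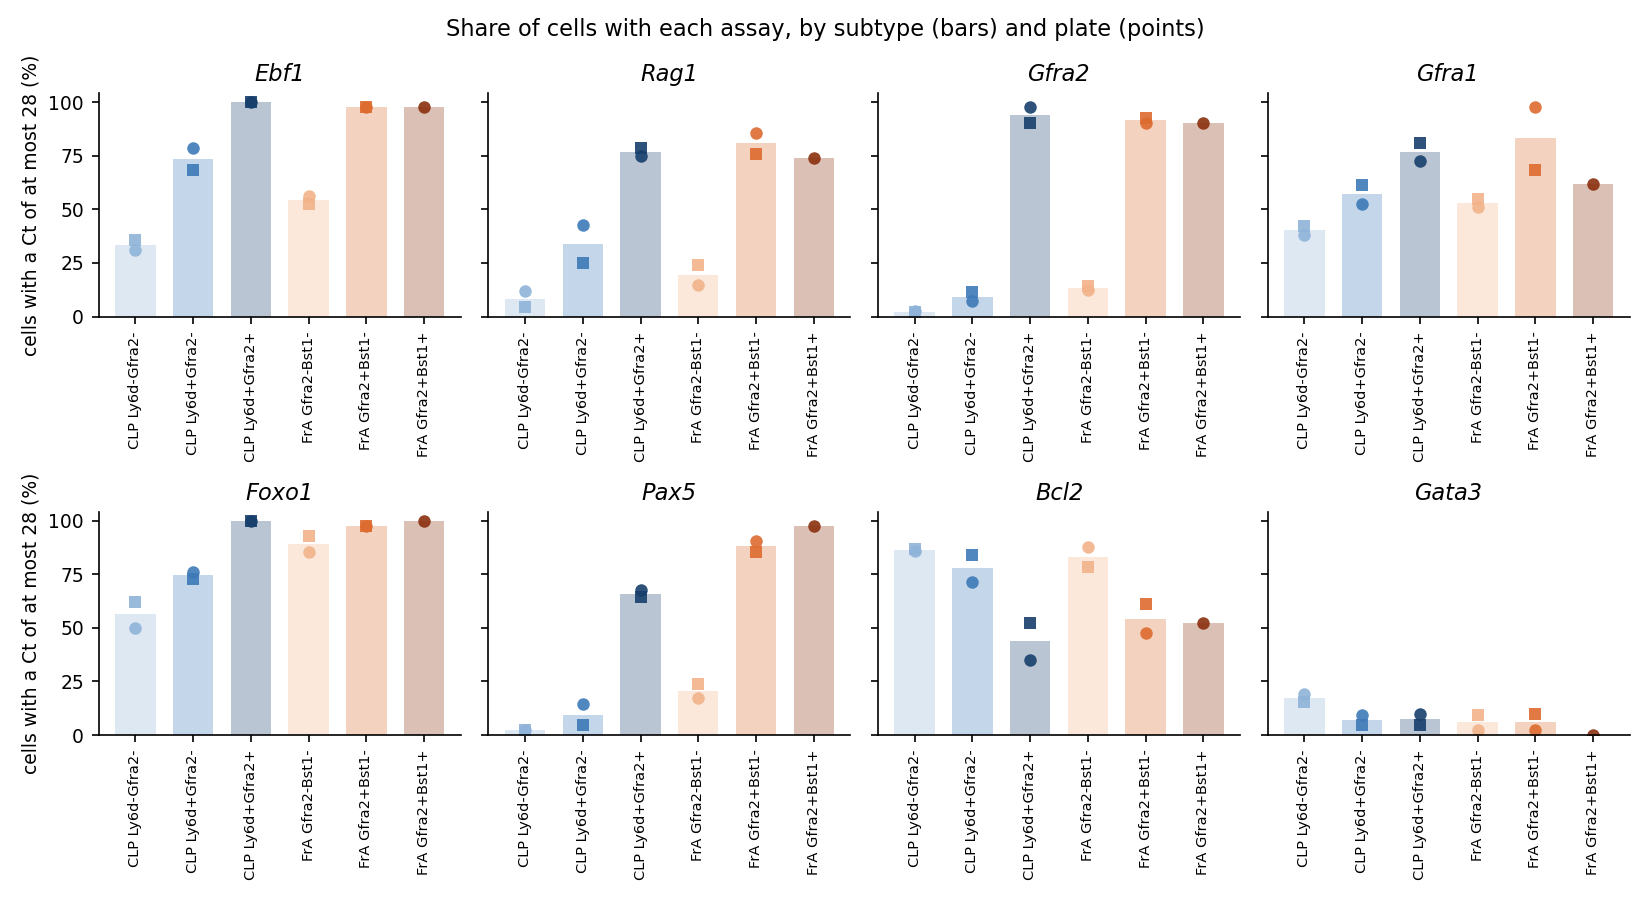
Share of cells with a Ct of at most 28 for Ebf1, the 4 assays most like it, Pax5, and the 2 least like it, in percent, by sorted subtype. Bars are subtype shares and points are single plates. Ebf1 is already present in 73.3% of CLP Ly6d+Gfra2- cells, where Pax5 is at 9.30%, and Bcl2 runs the other way.

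Within a subtype, cells with and without Ebf1 could be compared in the 3 Gfra2- subtypes, since the others had at most 2 cells without it. An assay was taken to go with Ebf1 when its share differed by at least 20 points between cells with and without Ebf1 and by the same sign on every plate. In CLP Ly6d-Gfra2-, 4 of 17 assays met this rule (23.5%), against 8.24% of all pairs of assays in those cells. In CLP Ly6d+Gfra2- it was 7 of 21 (33.3%), against 15.6% of all pairs. In FrA Gfra2-Bst1- it was 9 of 25 (36.0%), against 22.0% of all pairs. Pairs share cells and are not independent, and the same cells serve both counts.

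In CLP Ly6d+Gfra2-, cells with Ebf1 more often held Rag1, Mpo and Kit, and less often held Spib. Rag1 was found in 44.4% of 63 cells with Ebf1 and in 4.35% of 23 without, a difference of 40.1 points (19.8 to 52.8) that was 40.4 and 36.7 points on the 2 plates. Mpo, which encodes myeloperoxidase, was found in 66.7% with and 26.1% without, a difference of 40.6 points (16.8 to 57.6). Kit, the stem cell factor receptor, stood 30.8 points higher (10.1 to 51.4). Spib, which encodes an Ets-family factor known from plasmacytoid dendritic cells and B cells, ran the other way, at 9.52% with Ebf1 and 47.8% without, or -38.3 points (-58.2 to -17.3). Bach2 and Nfil3 were also less frequent with Ebf1, by -27.8 points (-41.7 to -6.74) and -23.2 points (-43.8 to 0.04), and Bach1 more frequent by 20.1 points (-0.34 to 41.6). The last 2 intervals reach zero. On plate 6 alone Bach2 differed by -19.2 points and Nfil3 by -5.05 points, both below the limit. Pax5 and Gfra2 were found in 12.7% of cells with Ebf1 and in none of the 23 without, a difference of 12.7 points that is below the limit.

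In FrA Gfra2-Bst1-, cells with Ebf1 again more often held Rag1 and less often Spib, and they also more often held Dntt, Rag2, Pax5 and Gfra2. Spib was detected in 42.2% of 45 cells with Ebf1 and in 86.8% of 38 without, or -44.6 points (-59.8 to -24.4), with -25.6 and -63.2 points on its plates. Only 5 of the 83 cells held neither Ebf1 nor Spib, and 19 held both. Dntt, which encodes terminal deoxynucleotidyl transferase, was in all 45 cells with Ebf1 and in 63.2% of those without, a difference of 36.8 points (21.3 to 52.7). Rag1 was in 35.6% of cells with Ebf1 and in none without, and Rag2 in 73.3% against 39.5%. Pax5 stood at 35.6% against 2.63%, a difference of 32.9 points (16.5 to 47.7), and Gfra2 at 24.4% against none. Lck and Bach1 were higher by 26.1 and 20.9 points, and Bad was lower by -21.3 points (-40.1 to 0.09), an interval that reaches zero.

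In CLP Ly6d-Gfra2-, where Ebf1 was rarest, the largest difference was that of Gfra1, which stood at 62.1% of 29 cells with Ebf1 and at 29.3% of 58 without, or 32.8 points (10.7 to 51.1), with 34.0 and 31.5 points on the plates. Bcl2l1, an inhibitor of cell death, was higher by 22.4 points (1.07 to 39.2) and Bach2 by 20.7 points (-0.96 to 38.1), and Nfil3 was lower by -20.7 points (-40.5 to 0.81). With a Ct limit of 20 for every assay, which counts the 2 late cells as lacking Ebf1, those 3 assays fell short and only Gfra1 met the rule. Dntt was found in all 87 of these cells, so it did not mark the Ebf1 cells there. Mpo was found in 82.8% with against 77.6% without Ebf1, but the difference was 30.2 and -18.1 points on the 2 plates, so its direction was not settled. Spib was found in 1 of the 87. Cells with and without Ebf1 held like amounts of reference template, with mean reference Ct of 11.04 and 11.31 in this subtype, 12.21 and 12.32 in CLP Ly6d+Gfra2-, and 12.80 and 12.40 in FrA Gfra2-Bst1-. The assays detected per cell numbered 22.1 and 21.4, 21.9 and 21.0, and 22.3 and 20.1 in the same order, and the part of these differences in the results was not tested.

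**Figure D3:**
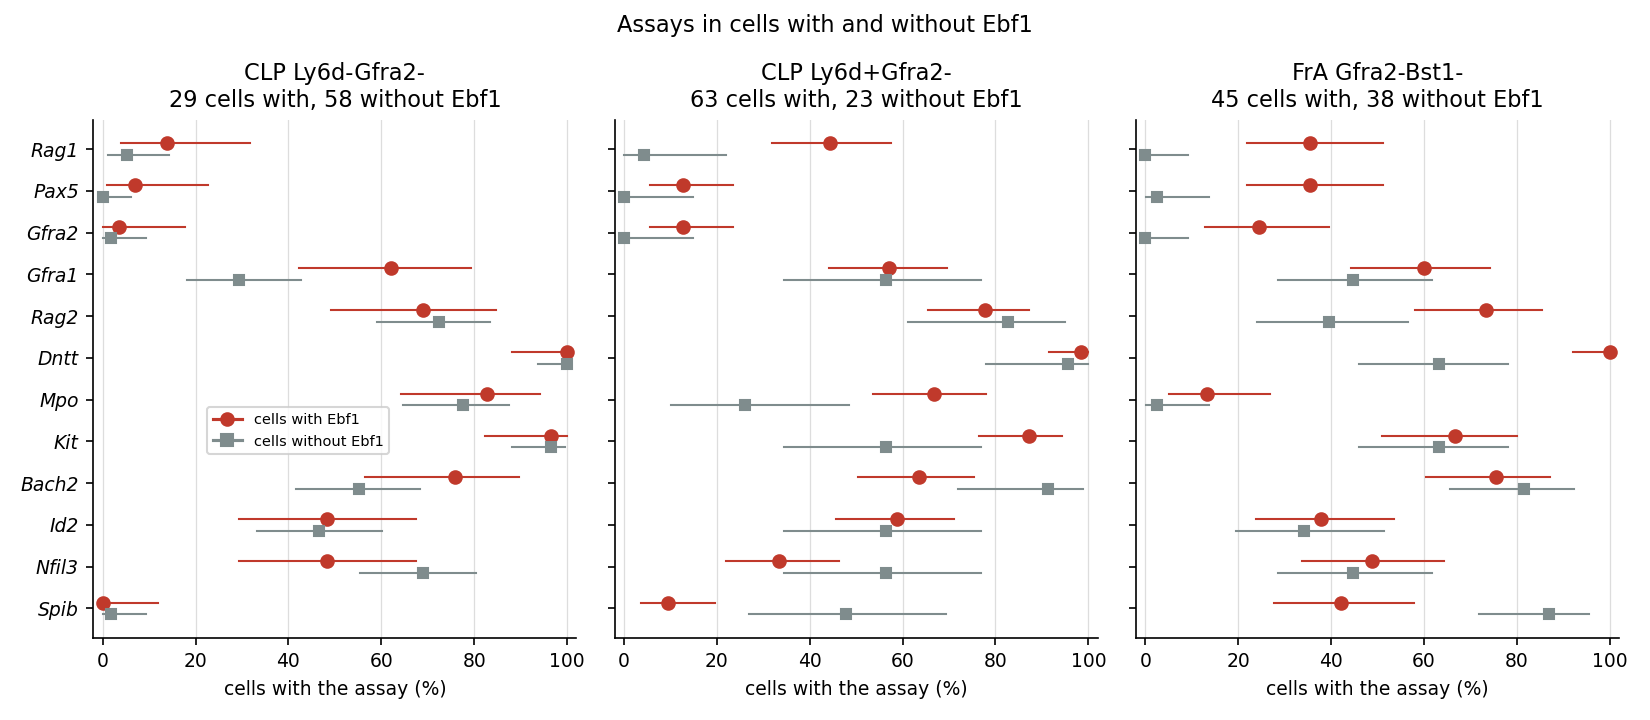
Percent of cells with each of 12 assays among cells with Ebf1 (red circles) and without it (grey squares), in the 3 subtypes that held both kinds of cell. Lines are exact 95% binomial intervals, which cover counting error only. Rag1 is more frequent with Ebf1 by 40.1 and 35.6 points in the middle and right panels, and Spib less frequent by 38.3 and 44.6 points.

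Over all 463 cells, nearly every cell that held Pax5, Igll1, Pou2af1, Rag1 or Gfra2 also held Ebf1. Of 195 cells with Pax5, 194 also held Ebf1, a share of 99.5% with a lower bound of 97.2%. Of 95 cells with Igll1, which encodes the lambda-5 part of the surrogate light chain, 94 held it. All 114 cells with Pou2af1, a coactivator of octamer factors in B cells, held it, as did 209 of 213 with Rag1 and 211 of 212 with Gfra2. Rag2 was different, since 79 of its 374 cells lacked Ebf1, and 42 of these were CLP Ly6d-Gfra2-. Most cells of these counts belong to the Gfra2+ subtypes, where nearly every cell held Ebf1, so the Gfra2- subtypes carry the information. There, 26 of 27 cells with Pax5, 48 of 52 with Rag1 and 20 of 21 with Gfra2 also held Ebf1. Of all cells, 33.3% held Ebf1 in CLP Ly6d-Gfra2-, 73.3% in CLP Ly6d+Gfra2- and 54.2% in FrA Gfra2-Bst1-. In CLP Ly6d-Gfra2- alone, Ebf1 was found in 2 of 2 cells with Pax5. It was found there in 4 of 7 with Rag1 (18.4% to 90.1%) and 1 of 2 with Gfra2, so the relation was not shown in that subtype. The cells that had 1 of the 4 genes Pax5, Igll1, Pou2af1 and Rag1 and no Ebf1 numbered 6, and 4 of them were Rag1 cells of the CLP Gfra2- subtypes with a Rag1 Ct from 15.23 to 16.04.

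The reverse did not hold, because many cells had Ebf1 and none of these 4 genes. They made up 79.3% of the Ebf1 cells in CLP Ly6d-Gfra2- (60.3% to 92.0%), 34 of the 63 Ebf1 cells in CLP Ly6d+Gfra2- and 12.2% in CLP Ly6d+Gfra2+. In FrA the shares were 48.9%, 3.70% and 0%, the last from 41 cells, with an upper bound of 8.60%. Ebf1 without any of them was thus common in the Gfra2- subtypes and rare in the Gfra2+ FrA. Where found, Pax5 had mean Ct values of 14.48 to 18.41 over the subtypes, and Pou2af1 of 22.75 to 25.50, which is near the limit of 28.

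Among cells with Ebf1, those that also held Gfra2, Pax5, Igll1, Pou2af1 or Rag1 had more Ebf1 in some subtypes and not in others. An assay was counted here when the mean Ebf1 Ct differed by at least 1 cycle between cells with and without it, with the same sign on every plate. The assays that met this numbered 4 of 13, 5 of 21 and 6 of 23 along the CLP series, or 30.8%, 23.8% and 26.1%, against 6.68%, 7.40% and 9.57% of all pairs. Along FrA they numbered 9 of 20, 3 of 25 and 1 of 17, or 45.0%, 12.0% and 5.88%, against 8.93%, 6.04% and 7.81%. In the last subtype the share was no higher than that of all pairs.

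Gfra2 transcript met this rule in each of the 4 subtypes where it could be judged. In FrA Gfra2-Bst1- the Ebf1 Ct was 11.84 ± 1.35 in 11 cells with Gfra2 and 14.58 ± 2.44 in 34 without, 2.74 cycles more Ebf1 (2.10 and 3.23 on the plates). In FrA Gfra2+Bst1- it was 10.82 ± 0.95 in 76 cells with and 12.93 ± 1.45 in 5 without, 2.11 cycles more. In CLP the difference was 1.19 cycles in Ly6d+Gfra2- (0.32 and 1.82 on the plates) and 1.39 cycles in Ly6d+Gfra2+ cells (3.13 and 0.72), so 1 plate of each lay below 1 cycle. Set against the reference assays, these 2 were 0.99 and 0.80 cycles and missed the rule. Igll1 met it in 3 of 3 subtypes, with 1.07, 1.12 and 1.28 cycles more Ebf1 in CLP Ly6d+Gfra2+, FrA Gfra2+Bst1- and FrA Gfra2+Bst1+. In the CLP the mean reference Ct was 11.47 in cells with Igll1 and 12.04 in those without, and its part in the difference was not tested. In the FrA subtypes it was 11.76 against 11.75 and 11.87 against 11.86. Both FrA differences fell below 1 cycle under an alternative given below.

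Pax5 met it in 3 of 4 subtypes. In FrA Gfra2-Bst1- the Ebf1 Ct was 12.32 ± 1.42 in 16 cells with Pax5 and 14.78 ± 2.57 in 29 without, a difference of 2.47 cycles that was 2.49 and 2.35 on the plates. In CLP Ly6d+Gfra2- and Ly6d+Gfra2+ it was 1.40 and 1.12 cycles, and in FrA Gfra2+Bst1-, with 8 cells lacking Pax5, 0.92 cycles, short of the rule. Rag1 stood at 1.45 cycles in CLP Ly6d+Gfra2- and at 2.27 cycles in FrA Gfra2-Bst1-, and Pou2af1 at 1.22 and 1.01 cycles in CLP Ly6d+Gfra2+ and FrA Gfra2+Bst1-. Kit cells of CLP Ly6d+Gfra2+ held 1.38 cycles more Ebf1, and the 5 Bst1 cells of CLP Ly6d+Gfra2- 1.59 cycles more. Some of these differences were larger on 1 plate. Without plate 1, those of Pax5 and Pou2af1 in CLP Ly6d+Gfra2+ were 0.76 and 0.80 cycles, and without plate 4, those of Igll1 and Pou2af1 in FrA Gfra2+Bst1- were 0.95 and 0.45 cycles, below the rule.

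Assays whose cells held less Ebf1 met the rule in 5 of 119 tests, all in 2 subtypes. In FrA Gfra2-Bst1-, cells with Bcl2, Id2 and Lck held less Ebf1, by -1.67, -1.67 and -1.53 cycles. Id2 encodes an inhibitor of E proteins that favours innate lymphoid fates. Its 17 cells had an Ebf1 Ct of 14.95 ± 3.20 against 13.27 ± 1.76 in 28 cells without it. With a Ct limit of 20 for every assay the differences of Bcl2, Id2 and Lck were -1.33, -1.02 and -1.23 cycles, and that of Bcl2 no longer met the rule. Klrb1c, which encodes a natural killer cell receptor, went with 1.66 cycles more Ebf1 in the same subtype, from 6 cells. In CLP Ly6d-Gfra2- the differences rested on few cells. Bad and Foxo1 cells held less Ebf1 by -2.07 and -1.51 cycles, and Rag2 and Gfra1 cells more by 2.37 and 1.95 cycles. With a Ct limit of 20 for every assay the Foxo1 difference was -0.37 cycles and that of Gfra1 0.06 cycles. Without plate 5 only Gfra1 could still be judged, at 0.41 cycles.

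Cells were also divided by how many of Pax5, Igll1, Pou2af1 and Rag1 they held, and Ebf1 was ordered by that number throughout in CLP Ly6d+Gfra2+ and in part elsewhere. In CLP Ly6d+Gfra2+ the mean Ebf1 Ct was 13.38 ± 1.25 in 10 cells with none of the 4, 12.14 ± 0.94 in 21 with 1, 11.97 ± 1.41 in 17 with 2, 11.27 ± 0.74 in 25 with 3 and 10.79 ± 0.73 in 9 with all. That is a run of 5 falling means over 2.59 cycles, although single cells of neighbouring classes overlapped. In FrA Gfra2+Bst1- the means were 12.31 ± 1.30 in 8 cells with 1 gene, 11.53 ± 1.00 in 18 with 2, 10.66 ± 0.82 in 23 with 3 and 10.35 ± 0.73 in 29 with 4, and the 3 cells with none stood out of order at 11.71 ± 1.22. FrA Gfra2-Bst1- went from 15.34 ± 2.67 in 22 cells with none to 12.81 ± 1.23 in 12 with 1 and 12.23 ± 1.56 in 9 with 2, while the single cells with 3 and 4 had 11.61 and 12.81. CLP Ly6d+Gfra2- went from 14.30 ± 1.65 in 34 cells with none to 13.29 ± 1.19 in 21 with 1 and 11.96 ± 0.74 in 7 with 2, and its 1 cell with 3 had 13.26. FrA Gfra2+Bst1+ had 11.39 ± 2.02 in 2 cells with 1 gene, 11.55 ± 0.82 in 5 with 2, 10.31 ± 0.72 in 13 with 3 and 10.19 ± 0.43 in 21 with 4, where the first pair of means is out of order. CLP Ly6d-Gfra2- did not show it, with 15.29 ± 2.81 in 23 cells with none and 16.44 ± 3.90 in 6 cells with 1 gene, 1 of which had an Ebf1 Ct of 24.32.

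**Figure D4:**
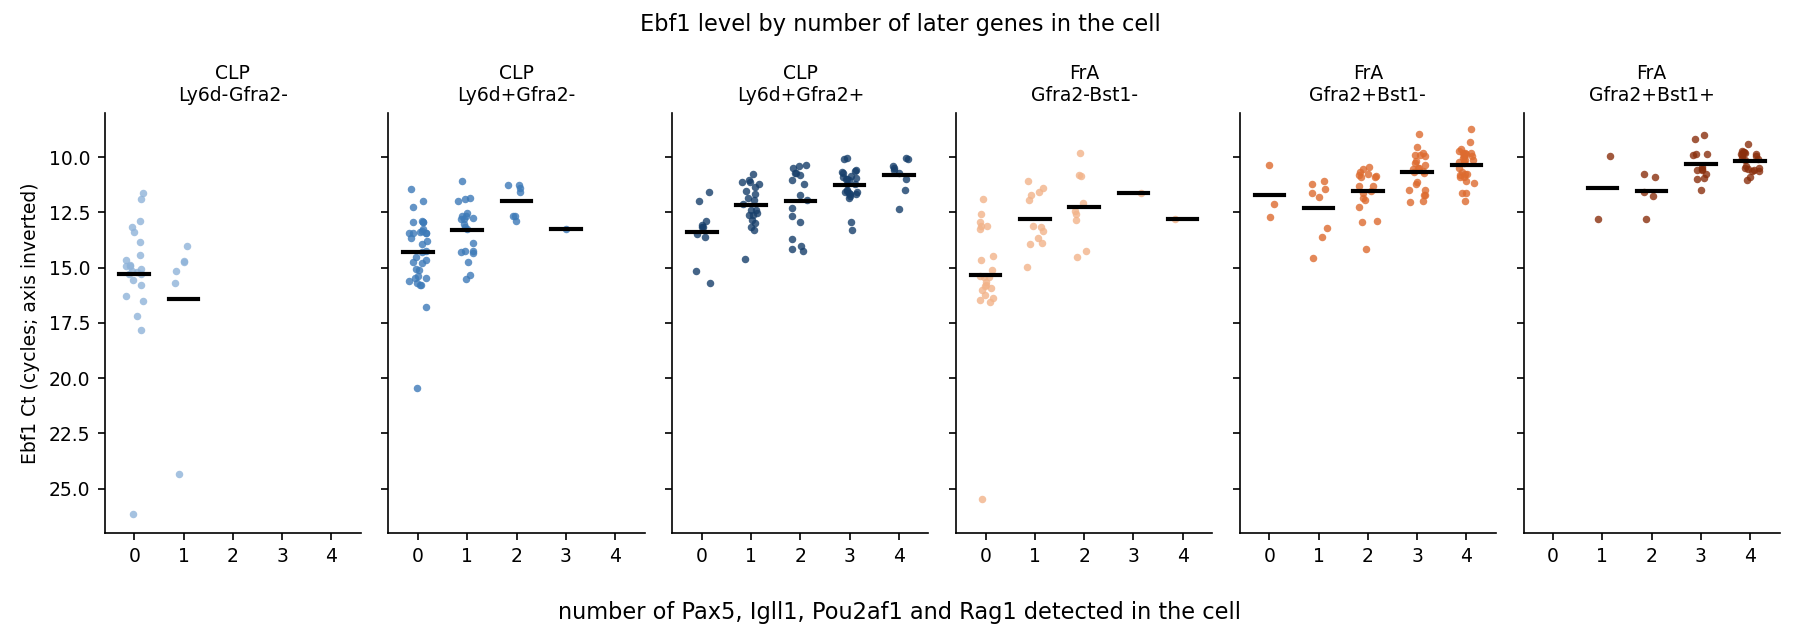
Ebf1 Ct in cycles (inverted axis) of each cell with Ebf1, against how many of Pax5, Igll1, Pou2af1 and Rag1 the cell held, with 1 panel per sorted subtype and bars for means. In CLP Ly6d+Gfra2+ the means run from 13.38 with none of the genes to 10.79 with all 4.

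Where both transcripts were recorded in a cell, their levels were compared by a rank correlation of the Ct values, corrected for the mean reference Ct and for plate. The correction is meant to lessen relations that come from cells with more RNA in all. Whether some of these remained was not tested. A positive value means that cells with more Ebf1 held more of the other transcript. An assay was counted at 0.3 or more in size with the same sign on every plate. In the CLP series 5 of 16, 4 of 23 and 8 of 27 assays met this, or 31.3%, 17.4% and 29.6%, against 13.9%, 9.77% and 14.4% of all pairs. In FrA 6 of 20, 6 of 28 and 4 of 25 met it, or 30.0%, 21.4% and 16.0%, against 17.7%, 14.1% and 17.6%. All values are descriptions over cells of 1 sample and share its wells.

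Pax5 level went with Ebf1 level in each of the 3 subtypes where it could be judged, and Foxo1 level in 4 of 5. Pax5 had 0.40 in 54 cells of CLP Ly6d+Gfra2+ (0.56 and 0.20 on the plates), 0.61 in 73 cells of FrA Gfra2+Bst1- (0.66 and 0.56) and 0.59 in 41 cells of FrA Gfra2+Bst1+. Foxo1 had 0.61 in 82 cells of CLP Ly6d+Gfra2+ (0.63 and 0.61), 0.50 in 79 cells of FrA Gfra2+Bst1-, 0.33 in 41 cells of FrA Gfra2-Bst1- and 0.31 in 48 cells of CLP Ly6d+Gfra2-. It had 0.27, below the limit, in FrA Gfra2+Bst1+. Pou2af1 had 0.48, 0.39 and 0.33 in the 3 Gfra2+ subtypes. Cd24a, a surface glycoprotein gene that rises early in the B lineage, had 0.39, 0.48 and 0.37 in the same subtypes, 0.30 in FrA Gfra2-Bst1-, just under the limit, and 0.14 and 0.08 in the CLP without Gfra2. Rag2 had 0.35 to 0.37 in 4 subtypes, although single plates gave 0.24 and 0.18 in FrA Gfra2-Bst1- and 0.52 and 0.23 in FrA Gfra2+Bst1-, whereas Rag1 met the rule only in CLP Ly6d+Gfra2+, with 0.44. Gfra2 had 0.56 there and 0.30 in FrA Gfra2+Bst1-, a value just under the limit. The natural killer receptor gene Klrb1c had 0.57 in 22 cells of CLP Ly6d+Gfra2+. With a plate left out, Pax5 in CLP Ly6d+Gfra2+ had 0.20 without plate 1, and Foxo1 0.11 in FrA Gfra2-Bst1- without plate 8 and 0.16 in CLP Ly6d+Gfra2- without plate 7. Igll1, whose presence marked Ebf1-high cells, had 0.17 and 0.18 in the FrA subtypes with Gfra2, so its amount followed Ebf1 less closely than did its presence, a contrast that was not tested.

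**Figure D5:**
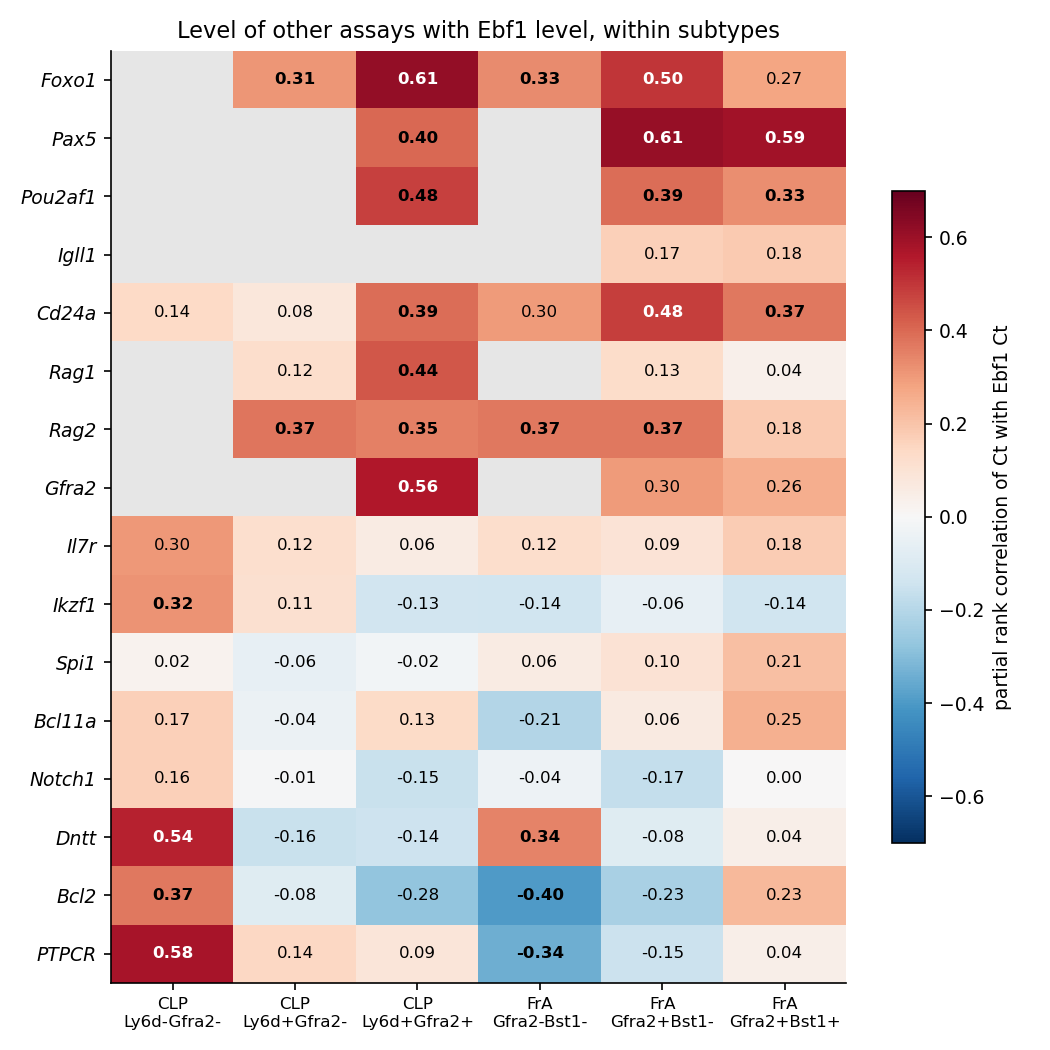
Rank correlation of the Ct of 16 assays with Ebf1 Ct within each subtype, corrected for mean reference Ct and plate. Bold values met the rule of 0.3 with the same sign on every plate, and grey fields had too few cells with both. Pax5, Foxo1, Pou2af1 and Cd24a are positive in the Gfra2+ subtypes, from 0.27 to 0.61.

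The panel was also read by lists of genes, which had been chosen with such results in view and are described by counts only. The list taken as genes switched on with or after Ebf1 held 6, Pax5, Igll1, Pou2af1, Cd24a, Rag1 and Rag2. In CLP Ly6d-Gfra2-, where 33.3% of cells held Ebf1, Cd24a was found in 100% and Rag2 in 71.3%, so both also occurred without Ebf1. The 6 genes met the level rule in 14 of 23 tests, all of them positive, with a median of 0.37, against 33 of 139 tests and a median of 0.12 over all assays. They met the rule for Ebf1 level by detection in 12 of 19 tests, all with more Ebf1, against 28 of 119 over all assays, with a median of 1.12 cycles against 0.27. For detection with detection it was 4 of 8 tests, against 20 of 63 over all assays, with a median of 22.8 points against 4.27. The 5 regulators on the panel (Il7r, Spi1, Ikzf1, Foxo1 and Bcl11a) met the level rule in 5 of 29 tests, of which 4 were Foxo1 and 1 was Ikzf1 in CLP Ly6d-Gfra2- at 0.32. Il7r ranged from 0.06 to 0.30 and Spi1, which encodes PU.1, from -0.06 to 0.21, and neither met it. The 11 genes of other fates met the level rule in 2 of 19 tests, Klrb1c at 0.57 in CLP Ly6d+Gfra2+ and Id2 at 0.41 in CLP Ly6d+Gfra2-. They met the rule for detection with detection in 5 of 22, where Spib and Nfil3 gave the 4 negative values and Mpo the positive one, and that for Ebf1 level by detection in 2 of 40, Klrb1c and Id2 in FrA Gfra2-Bst1-. Gata3, Il2rb, Cebpa, Id3 and Notch1 met none of the rules where they could be tested, and Bcl11b, found in no cell, could not be tested.

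The same lists were read across the subtypes. With Gfra2 in FrA, 5 of the 6 genes of the first list were detected in more cells, namely Pax5, Igll1, Pou2af1, Rag1 and Rag2. With Gfra2 in CLP it was 3 of 6, Pax5, Pou2af1 and Rag1. With Ly6d in CLP only Rag1 was, by 25.7 points (13.8 to 36.9), alongside the rise of Ebf1. With Bst1 in FrA, where Ebf1 was level within the limits, Igll1 was found in 24.4 points more cells (6.56 to 38.8) and Pax5 stood 1.39 cycles higher. Between FrA and CLP with Gfra2, Igll1 and Pax5 were detected in more FrA cells and Cd24a was higher in level. Between FrA Gfra2-Bst1- and CLP Ly6d+Gfra2-, Rag2 was lower in FrA, in both detection and level. Ebf1 met no rule in either of these comparisons. Of the 11 genes of other fates, Mpo and Nfil3 were detected in fewer cells with Ly6d in CLP, and Nfil3 in more with Gfra2 in CLP, by 22.7 points (7.54 to 36.4). Spib was detected in fewer cells with Gfra2 in FrA, by -42.2 points (-54.2 to -27.6). It was found in more cells of FrA Gfra2-Bst1- than of CLP Ly6d+Gfra2-, by 42.9 points (28.5 to 54.8). In that last comparison Id3 was also in more cells and Id2 and Mpo in fewer, and Mpo was in fewer FrA than CLP with Gfra2. The shares of all assays that were higher or lower are those given with the 6 comparisons of Ebf1.

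Wells that had received 10 or 20 cells of the plate's subtype gave a check of the Ebf1 assay. On 9 of 10 plates both wells recorded Ebf1, and 20 cells gave 1.06 ± 0.45 cycles more than 10 cells (SD, n = 9 plates), higher in 9 of 9 plates. An exact two-sided sign-flip permutation test over the plates gave p = 0.0039, the smallest such a test can give with 9 plates, and 0.0099 after Benjamini-Hochberg adjustment over 33 assays. The difference was higher in 75.8% of those 33 assays by the same test, so it is general and close to the 1 cycle that a doubling of cells should add. In the 10-cell wells the Ebf1 Ct was lowest, at 7.50 to 8.95, on the 4 plates with Gfra2+ cells, and 10.60 to 13.19 on the 5 others that recorded it. The 2 ranges did not overlap. The missing value was the 10-cell well of a CLP Ly6d-Gfra2- plate, the subtype in which 33.3% of single cells held Ebf1. Its 20-cell well had a Ct of 11.55.

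The Ct that each pool should show was computed from the single cells of the same plate by adding their template, with cells lacking Ebf1 counted as 0. The 10-cell wells came 0.82 ± 0.99 cycles later than that (n = 9 plates, from 0.16 to 3.39), and the 20-cell wells 0.56 ± 1.1 cycles later (n = 10, from -1.17 to 2.97). Atp5a1, a reference assay, was late by 0.62 ± 0.49 and 0.77 ± 0.51 cycles in the same wells. A FrA Gfra2-Bst1- plate stood apart, with 3.39 and 2.97 cycles in its 2 wells. Atp5a1 was late by 0.49 and 1.87 cycles in those wells, the second being the latest of any 20-cell well. Their mean reference Ct was 9.53 in the 10-cell and 9.97 in the 20-cell well. Without that plate, the means for Ebf1 were 0.49 ± 0.24 cycles (n = 8) and 0.29 ± 0.74 cycles (n = 9). The strongest Ebf1 cell of that plate had a Ct of 9.80, against a plate median of 13.11, and its part in the sum was not tested.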

How the data were processed

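Single sorted cells, and pools of 10 and 20 cells, were reverse-transcribed and pre-amplified with TaqMan assays and read on a BioMark HD instrument, per the labels' protocols. The deposited table gives the other kind of value, the threshold cycle (Ct), for 48 assays in 486 wells of 11 plates, where the design text speaks of 96 assays. What software and threshold the authors used, and whether they normalized the values, is not given in the sources used here. Of the 23328 values, 46.8% were 40, taken as not detected, and the rest lay between 4.69 and 28.07.

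Groups came from the labelled subtype. Members, gene lists and rules were chosen with earlier results of these data known. A cell was kept with at least 2 of 3 reference assays, among them Atp5a1 and Hprt. Cells of a subtype are not replicates, the labels name no animal, and each subtype counted as 1 sample, so differences are judged by size and by whether plates agree in sign or do not overlap. Limits were 20 points, 1 cycle and a rank correlation of 0.3. Detection was compared for assays between 5% and 95%, with at least 10 cells with and without Ebf1. Ebf1 level was compared with at least 5 cells on each side, and levels with levels over at least 20 cells, 8 on each plate. Pools were paired by plate, since both wells held cells of the same sort. Named assays were those that met a rule, those on the lists, and the assays most and least like Ebf1 over the subtypes. The rules for detection with detection and for level with level recovered planted relations in simulated tables. The planted relations were larger than the limits, and some calls among assays with nothing planted were allowed. Recovery of relations near the limits was not tried. The rule for Ebf1 level by detection and the rules between subtypes were not tried in this way. Values of 2 assays are not reported here. Assays named TCF and PTPCR keep the names in the table. Promoter windows are from RefSeq. Python 3.11.15, numpy 2.4.6, pandas 2.3.3 and scipy 1.17.1 were used. Alternatives were other Ct limits, scaling to the reference assays, no filter on cells, cells of like reference Ct, no wells at positions 30, 36, 42 and 48, and each plate left out in turn.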

Additional observations from a re-analysis of the deposited data

Results flagged for a closer look

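The 10-cell well of 1 FrA Gfra2-Bst1- plate gave an Ebf1 Ct 3.39 cycles later than the single cells of the plate predict, where the next highest plate had 0.84. It lay apart from the other 8 plates by a gap of 0.79 of the whole range. Of 7 groups of wells examined this was the only such value, and chance marks about 1 group in 20 in this way.

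Bach2, a transcriptional repressor gene of B cells, was more frequent in cells with Ebf1 in CLP Ly6d-Gfra2-, by 20.7 points, and less frequent in CLP Ly6d+Gfra2-, by -27.8 points. Each sign held on both plates of its subtype, and the difference between the subtypes was not tested. Bcl2 level went with Ebf1 level at 0.37 in CLP Ly6d-Gfra2- and at -0.40 in FrA Gfra2-Bst1-, and that difference was not tested either. The assay named PTPCR in the table had 0.58 and -0.34 in the same subtypes, again with the difference not tested.

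The titles of 2 wells on a FrA Gfra2-Bst1- plate say that they had no reverse transcriptase, while their descriptions call them cells, and they were kept out of every comparison. Ebf1 was nevertheless recorded in both, at a Ct of 14.40 and of 11.59, alongside 25 and 26 detected assays and a mean reference Ct of 12.41 and 11.65. These values are within the range of single cells of that plate.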

How the results depend on the processing

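Every share of cells with Ebf1 stayed inside its main interval under the alternatives run, and each of the 5 differences that met a rule with Ly6d or Gfra2 kept it, detection with Ly6d between 34.8 and 46.3 points, with Gfra2 between 21.4 and 31.8 points in CLP and between 41.5 and 50.5 points in FrA, and level with Gfra2 between 1.55 and 2.15 cycles in CLP and between 1.91 and 3.30 cycles in FrA. The lower share in FrA Gfra2-Bst1- than in CLP Ly6d+Gfra2- met the rule at -20.2 points with a Ct limit of 24 and at -32.5 points over the middle 50% of reference Ct. That difference ran from -24.4 to -14.0 points with 1 plate left out, meeting the rule without plate 2 or plate 7. Leaving out plates in the order of subtypes and in the pool prediction, and leaving out late cells from the spread, were also tried after seeing the data. The level difference between FrA and CLP with Gfra2 ran from 0.59 to 1.19 cycles, meeting the rule without plate 1.

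Of 81 associations of single assays that met a rule, 1 belongs to an assay not reported here. Of the other 80, 43 met their rule under every alternative that gave a value, and 1 changed sign, Bach1 with Ebf1 level in FrA Gfra2-Bst1-, at -0.15 cycles with a Ct limit of 20, an alternative chosen after seeing the data. In CLP Ly6d-Gfra2- the count for detection was 1 with a Ct limit of 24 and 1 with a limit of 20. With Ct minus the mean reference Ct, which puts the same reference value in both terms, the level counts along CLP were 10, 8 and 14, and those of the FrA subtypes with Gfra2 were 15 and 20. On that scale the counts for Ebf1 level by detection were 3 in CLP Ly6d+Gfra2- and 3 in FrA Gfra2+Bst1+. Without correction for reference Ct the level count was 3 in CLP Ly6d-Gfra2- and 12 in FrA Gfra2+Bst1+. Without well positions 30, 36, 42 and 48, FrA Gfra2+Bst1+ had 0 assays for Ebf1 level by detection, with Igll1 at 0.80 cycles, and 2 for level with level.

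With each plate left out in turn, the detection count in CLP Ly6d-Gfra2- ran from 2 to 4. The count for Ebf1 level by detection ran from 0 to 3 in CLP Ly6d-Gfra2-, from 2 to 3 in CLP Ly6d+Gfra2-, from 3 to 6 in CLP Ly6d+Gfra2+ and from 0 to 3 in FrA Gfra2+Bst1-. The level count ran from 2 to 3 in CLP Ly6d+Gfra2- and from 2 to 4 in FrA Gfra2-Bst1-. Leaving out a plate also removes the requirement that 2 plates agree and lowers the number of cells, and the cause of each change was not tested.

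For the pools, without the pairing by plate (no replicate block) the 20-cell wells held the same 1.06 cycles more, with an exact permutation p of 0.277. Scaled to the reference assays the difference was 0.24 cycles, with an exact sign-flip permutation p of 0.449. Leaving out each plate gave 0.99 to 1.16 cycles. No paired analysis was possible between subtypes because they share no plate and no numbered replicate.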
